A study of Mus musculus with 4 samples.

Results

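The Hox genes of the 4 mouse clusters were followed through an ATAC-seq experiment on embryonic stem cells that overexpressed Zscan4. Rows of the deposited gene table were taken when the symbol was Hox, a cluster letter from a to d and a paralogue number. This gave 40 rows for 39 genes, out of 46406 rows in all, with Hoxd4 listed on 2 rows of which the first was used. Cluster a on chromosome 6 held 11 genes, cluster b on chromosome 11 held 10, cluster c on chromosome 15 held 9 and cluster d on chromosome 2 held 9. By paralogue number, 12 genes were anterior (1 to 4), 11 central (5 to 8) and 16 posterior (9 to 13).

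Hox genes encode homeodomain transcription factors that give cells their position along the head-to-tail axis. The order of the genes along each cluster matches the order in which they are switched on in time and in which they are used from the hindbrain to the tail and the limbs. In embryonic stem cells the clusters are known as textbook Polycomb targets, with repressive and activating histone marks together at their CpG-rich starts, and most Hox genes are silent until retinoic acid or other differentiation signals open them. ATAC-seq cuts accessible DNA with the Tn5 transposase, so it reads open chromatin and not transcription.

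The Zscan4 OE group had 2 libraries from J1 mouse embryonic stem cells overexpressing Zscan4, a zinc finger protein of 2-cell embryos and of a small share of stem cells at any time. The control group had 2 libraries from J1 cells labelled wild type. All 4 carried the passage label PN+8, and the cells were grown without feeders. How Zscan4 was overexpressed, from which member of its gene family, and whether the cells were 1 clone is not stated in the labels. Nothing says that replicates came from separate cultures, so a p-value here reflects the spread among 4 libraries, and that spread may be technical. In such bulk libraries a change in some cells cannot be told apart from a smaller change in all of them.

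Depth was low. The library totals recovered from the values were 3605774 and 4899494 reads in Zscan4 OE 1 and 2, against 1061428 and 2903602 reads in controls 1 and 2. The totals were given to the libraries so that the share of reads on rows was most alike, which fixes the likeness of the next values. Of the reads, 12.8% and 9.93% lay on rows of the table in Zscan4 OE, against 12.4% and 9.38% in the controls. The deposited RPKM (reads divided by the feature's length in kilobases and by the library total in units of 1000000) had been divided by totals that changed from row to row, so every value was put back on its own library's total, and RPKM means this rescaled value below. A count of 0 allows up to 3 reads, which is 0.832 and 0.612 RPM (reads for every 1000000 of the library total) in Zscan4 OE 1 and 2, against 2.83 and 1.03 in controls 1 and 2. That limit covers counting error only. Of the 12 embryonic stem cell markers, such as Zfp42 and Tdgf1, 0 passed the test, and their summed level was 2.32 and 1.49 RPKM in Zscan4 OE, against 1.77 and 1.10 RPKM in the controls. All rows summed lay lower in each library, at 1.09 and 0.848 RPKM in Zscan4 OE, against 1.06 and 0.801 RPKM in the controls. The 7 fibroblast markers summed to 1.06 and 0.845 RPKM in Zscan4 OE and to 1.13 and 1.05 RPKM in the controls.

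The Hox genes were covered by few reads in every library. Summed over the 39 genes there were 266 and 306 reads in Zscan4 OE 1 and 2, against 85 and 213 reads in controls 1 and 2. A single gene had from 2 reads (Hoxa4) to 55 reads (Hoxa3, which patterns the third pharyngeal arch and its thymus and parathyroid glands) over the 4 libraries, with a median of 22. All 39 genes passed the filter of a mean of 0.1 RPKM, and 23 had at least 20 reads. No Hox gene was at 0 in either Zscan4 OE library, while 9 were at 0 in control 1, the shallowest library, and 1, Hoxa4, in control 2. Over all tested rows 14.5% and 11.2% were at 0 in Zscan4 OE, against 35.8% and 20.1% in the controls.

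Per length, Hox genes lay below protein-coding genes of like length. The Hox sum was 0.743 and 0.629 RPKM in Zscan4 OE, against 0.806 and 0.738 RPKM in the controls. The mean over Hox genes was 0.543 and 0.632 of the mean over all rows in Zscan4 OE, against 0.586 and 0.821 of it in the controls. Against 14316 protein-coding genes with a length in the Hox range, the median Hox gene was lower in each library, at 0.764 and 0.586 RPKM against 1.09 and 0.867 RPKM in Zscan4 OE, and at 0.766 and 0.654 RPKM against 0.989 and 0.785 RPKM in the controls. A value here sums the reads over the annotated feature, whose recovered length had a median of 2430 bp, or 57.8% of the gene's annotated span. It is taken to cover exons, and so mostly does not measure promoters or enhancers. Of the 39 genes, 20 overlap another annotated gene, and their reads may be shared with or lost to that gene.

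**Figure D1:**
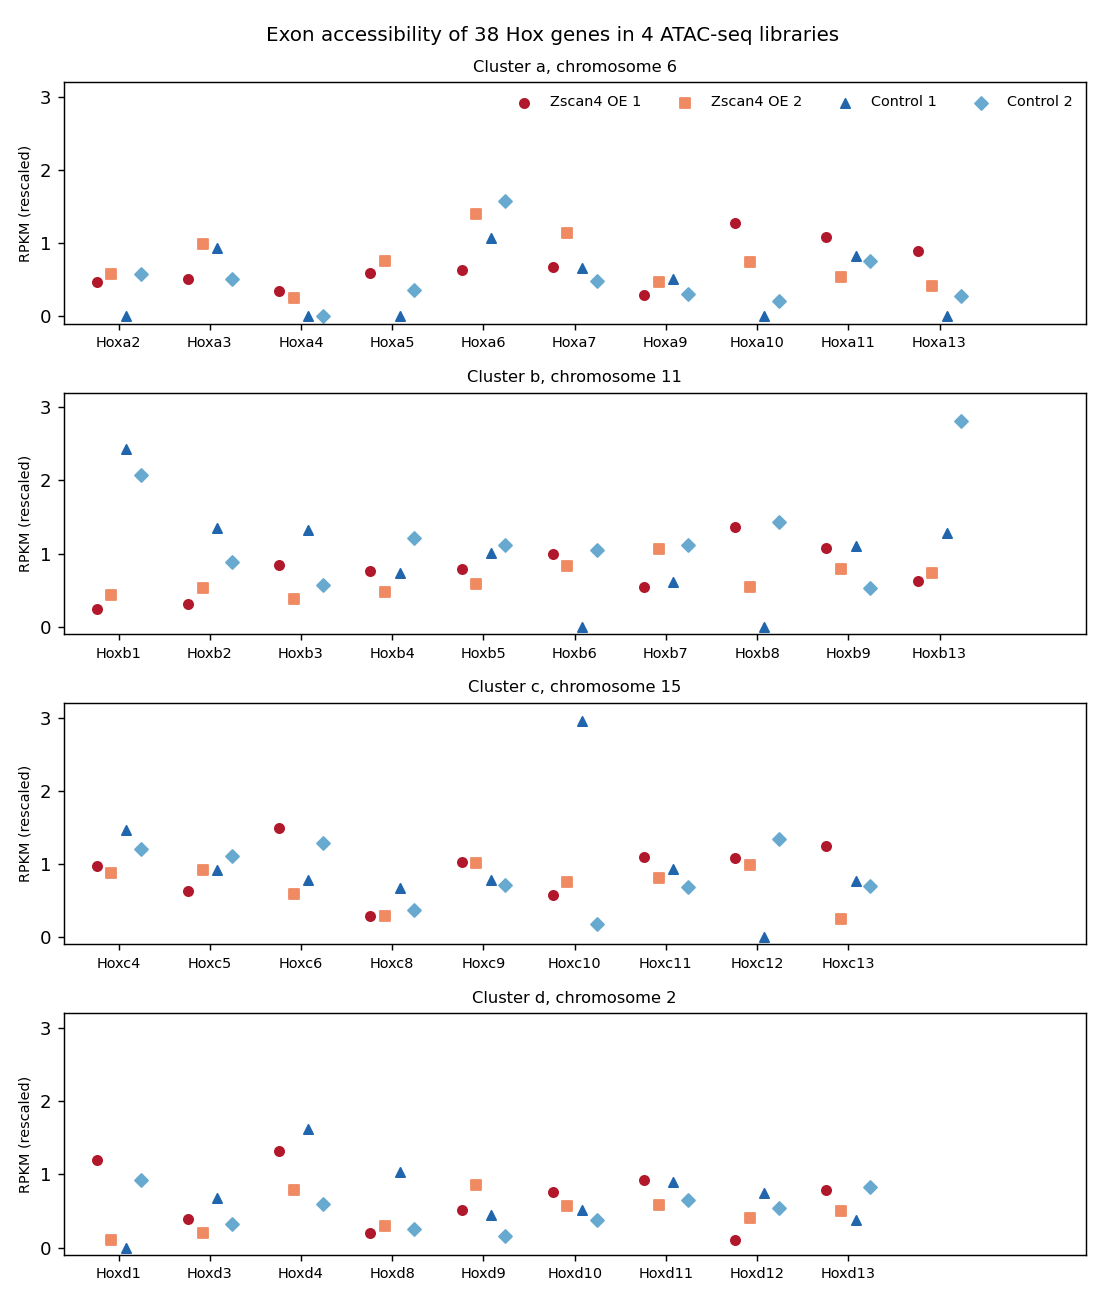
Level of 38 of the 39 Hox genes in RPKM (vertical axis), one panel per cluster with the genes in paralogue order along the horizontal axis. Circles and squares are Zscan4 OE 1 and 2, and triangles and diamonds are controls 1 and 2. The highest points are Hoxc10 in control 1, Hoxb13 in control 2 and Hoxb1 in both controls, and 9 genes stand at 0 in control 1.

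The single genes can be ordered by their mean level over the 4 libraries. Hoxb13, a tail bud and prostate gene, had the highest mean at 1.37 RPKM, followed by Hoxb1 at 1.30 RPKM and Hoxa6, a gene of the thoracic region, at 1.17 RPKM. These stand at percentiles 77.2, 75.1 and 70.5 of all tested rows. Hoxc4 led cluster c at 1.13 RPKM and Hoxd4 led cluster d at 1.08 RPKM, both genes of the neck vertebrae. Hoxa4 was lowest at 0.151 RPKM, below Hoxa9 and Hoxa13 at 0.397 RPKM each. The order did not carry over between libraries. The highest Hox gene was Hoxc6 in Zscan4 OE 1, Hoxa6 in Zscan4 OE 2, Hoxc10 in control 1 and Hoxb13 in control 2. Hoxc10, a gene of the lumbar region and hindlimb, had 4 and 7 reads in Zscan4 OE 1 and 2, against 6 and 1 reads in controls 1 and 2. Because control 1 is the shallowest library, its 6 reads are 2.96 RPKM, while the single read of control 2 is 0.18 RPKM, so this gene's control values lie on both sides of its Zscan4 OE values of 0.581 and 0.748 RPKM.

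No Hox gene passed the test for a difference between the groups. With limma on log2(RPKM + 0.1), fitted over 42989 rows, 0 rows had higher values and 0 rows had lower values at a Benjamini-Hochberg adjusted p under 0.05 (percent called: 0 and 0), and the smallest adjusted p among Hox genes was 0.339, for Hoxb1. At an unadjusted p under 0.05 there was 1 Hox gene with higher values (Hoxa10), where 2189 rows (5.09%) were called, and 1 with lower values (Hoxb1), where 573 rows (1.33%) were called. Both Zscan4 OE libraries stood above both controls in 8 Hox genes (20.5%), against 19.6% of all rows. Both stood below both controls in 7 Hox genes (17.9%), against 10.1% of all rows. The log2 difference was above 0 in 19 Hox genes and below 0 in 20, whereas 62.0% of all rows were above 0 and 38.0% below. With each library centred on its median, 14 Hox genes were above 0 and 25 below. The median log2 difference was -0.03 over the Hox genes and 0.28 over all tested rows, so the Hox median lay 0.31 below that of all rows. It lay 0.18 below the median of protein-coding genes, which was 0.15, and, over rows with at least 20 reads, 0.17 below that of all such rows. In the limma differences this gap was lost without Zscan4 OE 2, where the Hox median was 0.014 above that of all rows. Within single libraries, the median log2(RPKM + 0.1) of Hox genes minus that of all tested rows was also taken. It was -0.13 and -0.30 in Zscan4 OE 1 and 2, against 0.26 and -0.0012 in controls 1 and 2.

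The clusters differed in direction. Cluster a had more reads per length in both Zscan4 OE libraries than in either control, and cluster b had fewer, while clusters c and d overlapped between the groups. Cluster a, which includes the limb and reproductive tract genes Hoxa10 to Hoxa13 at its posterior end, summed to 0.692 and 0.740 RPKM in Zscan4 OE, against 0.501 and 0.447 RPKM in the controls. The exact Poisson 95% intervals, which cover counting error only, were 0.544 to 0.867 and 0.607 to 0.892 in Zscan4 OE, against 0.287 to 0.814 and 0.318 to 0.611 in the controls. The means were 0.716 ± 0.034 in Zscan4 OE and 0.474 ± 0.039 RPKM in the controls (SD, n = 2 each), a ratio of 1.51. Of the 11 genes, 8 had a log2 difference above 0 and 3 below, and in 5 of them (Hoxa4, Hoxa5, Hoxa7, Hoxa10 and Hoxa13, named after their values were seen) both Zscan4 OE libraries stood above both controls. In none of the 11 did both stand below. The 5 are 45.5% of the 11, against 19.6% of all rows and 11 of the 21 tested genes within 1 Mb of the cluster, where 0 stood below and 18 had a log2 difference above 0. On the rest of chromosome 6, 468 of the 1790 tested rows (26.1%) stood above and 99 below. Of the 5, all but Hoxa7 had 0 reads in control 1. There the 3-read limit is worth 1.51 RPKM for Hoxa5, 0.864 RPKM for Hoxa10, 1.14 RPKM for Hoxa13 and 3.55 RPKM for Hoxa4, above 1 or both of the Zscan4 OE values of each, so at this depth their separation from control 1 is within what a count of 0 allows.

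Cluster b, whose 3' end holds the hindbrain genes Hoxb1 and Hoxb2, went the other way. Its sum was 0.758 and 0.597 RPKM in Zscan4 OE, against 1.04 and 1.203 RPKM in the controls. The Poisson intervals were 0.593 to 0.955 and 0.471 to 0.746 in Zscan4 OE, against 0.695 to 1.49 and 0.970 to 1.48 in the controls. The means were 0.677 ± 0.114 in Zscan4 OE and 1.12 ± 0.117 RPKM in the controls (SD, n = 2 each), a ratio of 0.605. Of the 10 genes, 3 had a log2 difference above 0 and 7 below. In 4 of them, Hoxb1, Hoxb2, Hoxb5 and Hoxb13, both Zscan4 OE libraries stood below both controls, and in none did both stand above. The 4 are 40% of the 10, against 10.1% of all rows and 461 of the 2216 tested rows on the rest of chromosome 11, where 208 stood above. Of the 58 tested genes within 1 Mb of the cluster, 14 (24.1%) stood below and 9 above. For each of clusters a and b the exact two-sided permutation test over the 4 libraries gave p = 0.333, the smallest that this test can give with 2 libraries against 2, so it cannot pass a threshold here.

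Clusters c and d showed no separation between the groups. Cluster c, which has no paralogues 1 to 3, summed to 0.909 and 0.698 RPKM in Zscan4 OE, against 1.04 and 0.830 RPKM in the controls, a ratio of 0.858. Cluster d, whose posterior genes shape the digits and the external genitalia, summed to 0.637 and 0.451 RPKM in Zscan4 OE, against 0.722 and 0.497 RPKM in the controls, a ratio of 0.893. In both, each group held 1 value inside the range of the other. Divided by the reads on all rows in place of the library total, clusters c and d had lower values in both Zscan4 OE libraries than in both controls, with ratios of 0.817 and 0.855. On that scale clusters a and b had ratios of 1.46 and 0.562 and kept their directions.

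**Figure D2:**
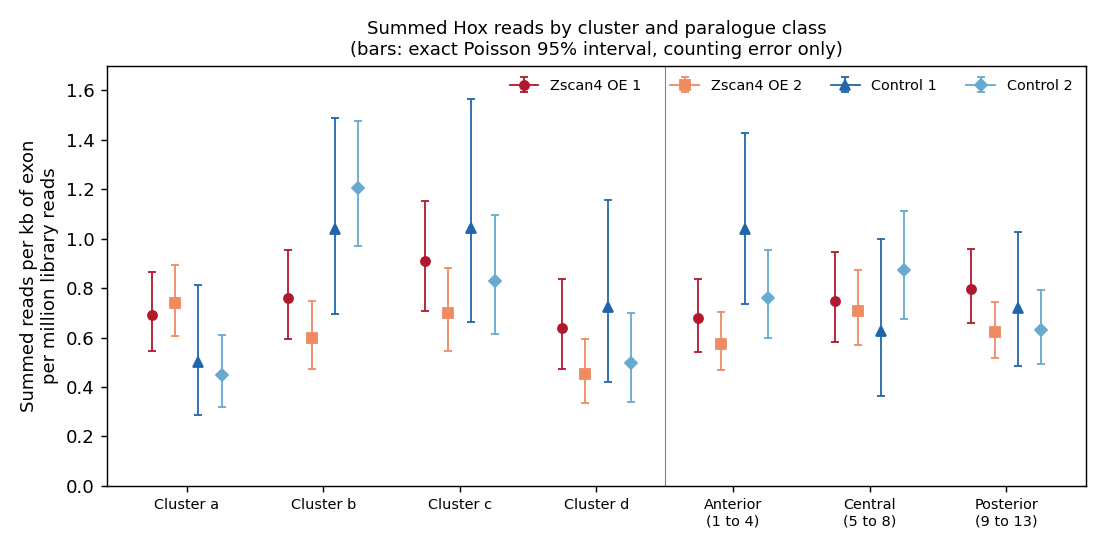
Summed RPKM, as reads over the summed feature length and the library total (vertical axis, linear, starting at 0) for the 4 clusters and the 3 paralogue classes. Points are single libraries with Zscan4 OE 1 and 2 left of controls 1 and 2, and bars are exact Poisson 95% intervals for counting error. Cluster a is higher in both Zscan4 OE libraries than in both controls (ratio 1.51), cluster b lower (0.605), and the other 2 clusters overlap.

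Shares of Hox reads within a library do not depend on which total was given to which library. They still rest on the reads recovered for each row, and so on its recovered length and rotating total. Cluster a took 28.2% and 35.6% of the Hox reads in Zscan4 OE, against 18.8% and 18.3% in the controls. Cluster b took 27.1% and 25.2% in Zscan4 OE, against 34.1% and 43.2% in the controls. The split between clusters a and b was set up after their directions were seen, so it only describes them. Of the reads on both together, cluster a held 51.0% (Clopper-Pearson 95% interval 42.7 to 59.3) and 58.6% (51.2 to 65.8) in Zscan4 OE 1 and 2. It held 35.6% (21.9 to 51.2) and 29.8% (22.1 to 38.4) in controls 1 and 2. These intervals cover counting error only and take each read as a separate molecule. Clusters c and d kept similar shares, from 23.2% to 27.1% for c and from 15.0% to 20% for d over the 4 libraries.

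Leaving out any 1 gene did not turn the direction of cluster a or b. Without Hoxa10 cluster a had its lowest ratio, 1.31, with 0.621 and 0.739 RPKM in Zscan4 OE, against 0.562 and 0.475 RPKM in the controls, so the groups still did not overlap. Without Hoxa3, the gene with most reads, the ratio was 1.73. Cluster b had ratios from 0.555 without Hoxb8 to 0.703 without Hoxb1. Leaving out control 1, the shallowest library, gave 1.60 for cluster a and 0.563 for cluster b.

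The ratios of clusters a and b lay on the same side of 1 as those of the rest of their chromosomes. On library totals the groups overlapped on the rest of both chromosomes. Divided by the reads on all rows they did not. Both Zscan4 OE libraries then stood above both controls on chromosome 6 (ratio 1.21) and below both on chromosome 11 (ratio 0.791). Chromosome 6, home of cluster a, had the highest ratio of Zscan4 OE over control of the 20 chromosomes in RPM on its other genes, 1.24. Those genes summed to 0.989 and 0.771 RPKM in Zscan4 OE, against 0.893 and 0.522 RPKM in the controls, and their ratio was 1.69 without control 1 and 0.985 without control 2. Chromosome 11, home of cluster b, had the lowest, 0.828, with 1.23 and 0.938 RPKM in Zscan4 OE, against 1.47 and 1.14 RPKM in the controls. Without 1 library in turn its ratio ran from 0.718 to 0.952. Chromosomes 15 and 2 had ratios of 0.980 and 1.16. Of the tested rows, 73.6% on chromosome 6 and 40.3% on chromosome 11 had a log2 difference above 0. Set against 1000 reads on the other genes of its chromosome, cluster a had 3.55 and 4.87 reads in Zscan4 OE, against 2.85 and 4.34 in the controls, and the groups overlapped, with a ratio of 1.17. Cluster b had 2.43 and 2.49 reads per 1000 in Zscan4 OE, against 2.76 and 4.15 in the controls, a ratio of 0.712 with no overlap. On the same scale cluster c had a ratio of 0.883 and cluster d of 0.767, each with both Zscan4 OE libraries below both controls.

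The direct neighbours of the clusters were taken as a second comparison. The 22 genes within 1 Mb of cluster a summed to 1.02 and 0.819 RPKM in Zscan4 OE, against 0.826 and 0.395 RPKM in the controls, with overlapping groups and a ratio of 1.503. That ratio rests on control 2: it was 2.32 without control 1 and 1.11 without control 2, while the cluster's ran from 1.43 to 1.60 over the libraries left out. Divided by the reads on all rows, the neighbours had both Zscan4 OE libraries above both controls, with a ratio of 1.49. Against these neighbours the cluster had a ratio of 0.912, with overlapping groups. The 60 genes within 1 Mb of cluster b had a ratio of 0.838, and against them the cluster had 0.711, with both Zscan4 OE libraries lower. Divided by the reads on all rows, these 60 genes also had both Zscan4 OE libraries below both controls, with a ratio of 0.796. For cluster d the 21 neighbours had a ratio of 1.52 while the cluster had 0.893, so that relative to them it had 0.591, again with both Zscan4 OE libraries lower. Cluster c had 0.856 relative to its 60 neighbours. What sets the ratios of chromosomes 6 and 11 in these libraries, and its part in the cluster values, was not tested.

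**Figure D3:**
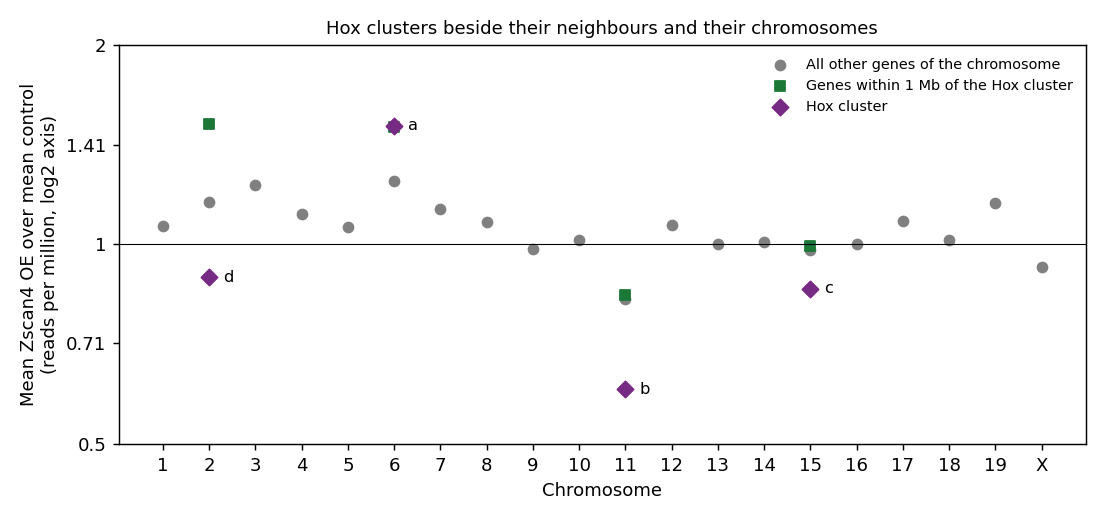
Mean RPM in Zscan4 OE over the mean in controls (vertical axis, log2 scale) for the 20 chromosomes along the horizontal axis. Grey circles are all other genes of a chromosome, green squares the genes within 1 Mb of a Hox cluster and purple diamonds the cluster itself. Chromosome 6 is the highest circle and chromosome 11 the lowest, and clusters b, c and d lie below the circles of their chromosomes while the square and the diamond of cluster a coincide.

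Sorted by paralogue class, only the anterior genes separated between the groups, and they did so through cluster b. The 12 anterior genes, which pattern the hindbrain and neck, summed to 0.677 and 0.575 RPKM in Zscan4 OE, against 1.04 and 0.761 RPKM in the controls, a ratio of 0.695 with 6 genes above 0 and 6 below. The exact permutation test gave p = 0.333, the smallest possible. The 4 anterior genes of cluster b alone summed to 0.571 and 0.453 RPKM in Zscan4 OE, against 1.42 and 1.06 RPKM in the controls, a ratio of 0.413. The other 8 anterior genes summed to 0.739 and 0.647 RPKM in Zscan4 OE, against 0.822 and 0.585 RPKM in the controls, a ratio of 0.985 with overlap. Without Hoxb1 the 12 anterior genes' ratio was 0.806, and the groups overlapped. The 11 central genes, which mark the thoracic region, summed to 0.747 and 0.709 RPKM in Zscan4 OE, against 0.625 and 0.873 RPKM in the controls. The 16 posterior genes, of the lumbar to tail region and the limbs, summed to 0.797 and 0.623 RPKM in Zscan4 OE, against 0.719 and 0.631 RPKM in the controls. Their ratios were 0.971 and 1.05, with overlap in both classes.

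Within cluster a the order of the 3 classes rests on Hoxa10. Hoxa9 to Hoxa13 summed to 0.774 and 0.540 RPKM in Zscan4 OE, against 0.346 and 0.354 RPKM in the controls, a ratio of 1.88. Hoxa10 gave 15 of 38 and 12 of 36 of these posterior reads in Zscan4 OE, against 0 of 5 and 2 of 14 in the controls. Without it the posterior sum was 0.617 and 0.474 RPKM in Zscan4 OE, against 0.456 and 0.400 RPKM in the controls, a ratio of 1.28. The 3 central genes had a ratio of 1.52, without overlap on library totals but with overlap when divided by the reads on all rows, and the 4 anterior genes 1.23, with overlap. These sums rest on few genes and reads, and whether the ratios of the 3 classes differ was not tested.

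Hoxa10 and Hoxb1 lay at the ends of the range of log2 differences. Hoxa10, needed in the uterus and for lumbar vertebrae, lies on chromosome 6 at 52231197 to 52240854 (GRCm38.p6). It had 15 and 12 reads in Zscan4 OE, against 0 and 2 reads in the controls, or 1.27 and 0.749 RPKM in Zscan4 OE, against 0 and 0.211 RPKM in the controls. Both Zscan4 OE values were above both control values, though Zscan4 OE 2 lies under the 0.864 RPKM that 0 reads allow in control 1, and the log2 difference was 2.61 (SE 0.93) with an adjusted p of 0.73 over all rows by limma. Hoxb1, which gives the fourth rhombomere of the hindbrain its identity and keeps itself on through a Hox and Pbx element, lies on chromosome 11 at 96365746 to 96368254. It had 2 and 5 reads in Zscan4 OE, against 6 and 14 reads in the controls, although the controls were the shallower libraries. This is 0.239 and 0.439 RPKM in Zscan4 OE, against 2.43 and 2.08 RPKM in the controls. Both Zscan4 OE libraries were well below both controls, and the log2 difference was -2.46 (SE 0.53) with an adjusted p of 0.339 over all rows by limma. Leaving out each library in turn kept Hoxb1 between -2.79 and -2.12 and Hoxa10 between 1.80 and 3.43. The size depends on the offset added before the log: with an offset of 1 it was -1.28 for Hoxb1 and 0.86 for Hoxa10, and with 0.01 it was -2.76 and 4.39. In the values as deposited Hoxb1 had -0.997 (all limma).

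The starts of these genes are shown because Hox promoters are classed by their CpG content, and the values above count reads on the annotated feature from the start on. The sequences are from RefSeq, on build GRCm38.p6, from 250 bases before to 50 bases after an annotated start, read 5′ to 3′ along the gene, with each CpG in capitals. The first and second belong to Hoxa10 transcripts on the minus strand at chr6:52240805-52241104 and chr6:52234890-52235189, and the third to Hoxb1 on the plus strand at chr11:96365508-96365807.
Hoxa10 far start: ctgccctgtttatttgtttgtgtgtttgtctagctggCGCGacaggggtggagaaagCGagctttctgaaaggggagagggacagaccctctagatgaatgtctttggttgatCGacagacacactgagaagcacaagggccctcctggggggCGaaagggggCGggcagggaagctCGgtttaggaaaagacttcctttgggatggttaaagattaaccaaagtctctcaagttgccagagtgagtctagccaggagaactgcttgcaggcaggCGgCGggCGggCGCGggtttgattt
Hoxa10 near start: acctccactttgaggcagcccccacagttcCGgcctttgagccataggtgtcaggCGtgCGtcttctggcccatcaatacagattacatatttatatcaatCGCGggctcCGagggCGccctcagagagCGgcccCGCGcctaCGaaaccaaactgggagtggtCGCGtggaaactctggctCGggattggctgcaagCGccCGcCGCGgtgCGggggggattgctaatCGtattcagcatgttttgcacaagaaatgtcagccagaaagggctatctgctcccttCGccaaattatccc
Hoxb1: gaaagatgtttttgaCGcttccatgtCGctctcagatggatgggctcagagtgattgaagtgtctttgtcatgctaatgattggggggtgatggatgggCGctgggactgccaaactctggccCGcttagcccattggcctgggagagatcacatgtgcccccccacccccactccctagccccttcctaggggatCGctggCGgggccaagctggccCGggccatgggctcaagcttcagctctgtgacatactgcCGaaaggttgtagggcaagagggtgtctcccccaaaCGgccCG
The 2 Hoxa10 windows hold 12 and 21 CpGs, and the Hoxb1 window holds 10.

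Against all windows of the same kind the Hox starts were richer in CpG. Of the 39 genes, 22 had a window, 24 windows in all, with a median of 14.5 CpGs and 57.7% GC, against 7 CpGs and 52.7% GC over 32851 windows. The motif TGATNNAT, a core that Hox proteins bind together with Pbx, was searched on both strands and found in 4 Hox windows (16.7%), Hoxb1 among them, against 8.85% of all windows. The homeodomain core TAATTA, whose matches may overlap those of the first motif, was in 2 (8.33%), against 5.29% of all windows. Both of these windows belong to the same gene, Hoxd11. The letters TATAAA, also searched on both strands, were in 4 (16.7%), against 13.6% of all windows. The second Hoxa10 window is among them, with its match on the strand opposite to the one printed. A match is a description of these letters and says nothing of binding.

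**Figure D4:**
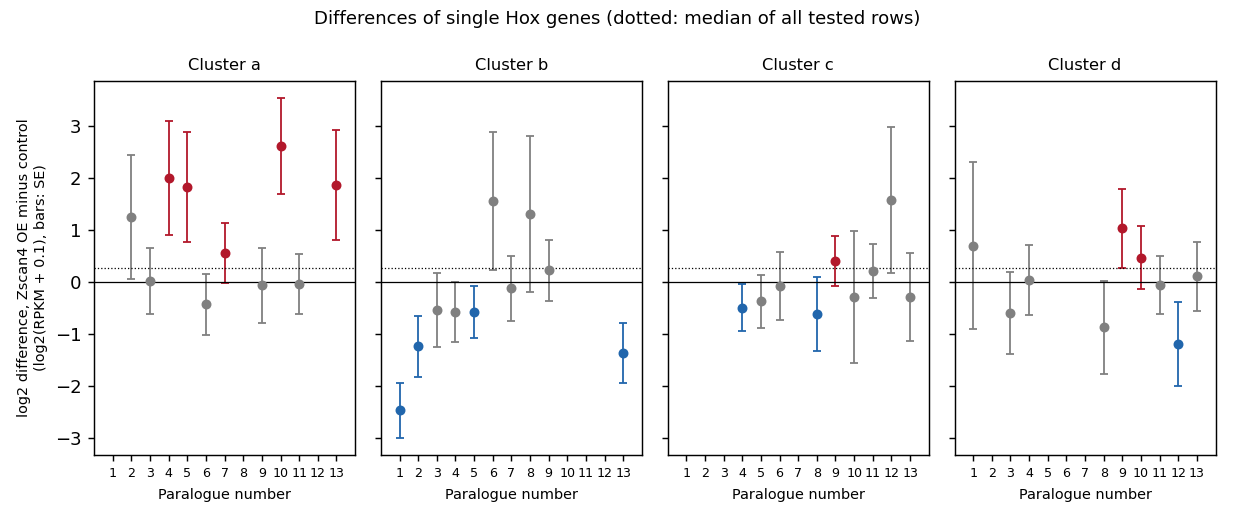
log2 difference of 38 of the 39 Hox genes (vertical axis, Zscan4 OE minus control on log2(RPKM + 0.1)) against the paralogue number, one panel per cluster, with the standard error as bars. Red points are genes with both Zscan4 OE libraries above both controls, blue points genes with both below, grey points the rest, and the dotted line is the median of all tested rows at 0.28. Cluster a holds 5 red and no blue points, cluster b 4 blue and no red, and none of the 39 passed the adjusted threshold.

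The other named genes of cluster b with values below 0 had smaller differences than Hoxb1. Hoxb13 had 5 and 8 reads in Zscan4 OE, against 3 and 18 reads in the controls, or 0.629 and 0.740 RPKM in Zscan4 OE, against 1.28 and 2.81 RPKM in the controls. Its groups did not overlap, and its log2 difference was -1.36 (SE 0.57, adjusted p = 0.869, limma). Hoxb2, a hindbrain gene downstream of Hoxb1, had 0.318 and 0.527 RPKM in Zscan4 OE, against 1.35 and 0.889 RPKM in the controls, with a log2 difference of -1.23. Hoxb5, a gene of the neck and of neural crest in the gut, had 0.796 and 0.586 RPKM in Zscan4 OE, against 1.01 and 1.11 RPKM in the controls, with a log2 difference of -0.57. Hoxb4, known for the growth of blood stem cells, also had -0.57, but its groups overlapped.

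The 2 largest positive log2 differences in cluster b came from genes at 0 in control 1. Hoxb6 had 7 and 8 reads in Zscan4 OE, against 0 and 6 reads in the controls, with a log2 difference of 1.57. Hoxb8, expressed in the trunk and in microglial precursors, had 13 and 7 reads in Zscan4 OE, against 0 and 11 reads in the controls, with a log2 difference of 1.31. Without control 1, where both genes were at 0, the differences were -0.19 and -0.66.

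In cluster a the other named genes rested on few reads, and 2 of the 5 had overlapping groups. Hoxa7, a gene of the thoracic region, had 7 and 16 reads in Zscan4 OE, against 2 and 4 reads in the controls, or 0.675 and 1.14 RPKM in Zscan4 OE, against 0.655 and 0.479 RPKM in the controls. Its groups did not overlap, by a narrow margin, and the log2 difference was 0.57 (SE 0.58, adjusted p = 0.869, limma). Hoxa13, a gene of the digits, had 8 and 5 reads in Zscan4 OE, against 0 and 2 reads in the controls. Hoxa4 was the only Hox gene at 0 in a whole group, with 1 and 1 reads in Zscan4 OE, against 0 and 0 reads in the controls. All 4 of its counts are under the 3-read limit, so no fold is given. Its recovered length of 797 bp, and with it these counts, may be too small by the same factor, which leaves its RPKM as it is. Hoxa9, used in blood progenitors and the lumbar spine, had 0.298 and 0.476 RPKM in Zscan4 OE, against 0.507 and 0.309 RPKM in the controls, with overlap. Hoxa6 had 0.635 and 1.40 RPKM in Zscan4 OE, against 1.08 and 1.58 RPKM in the controls, also with overlap.

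In clusters c and d, genes of both directions stood side by side. Hoxc4 had 9 and 11 reads in Zscan4 OE, against 4 and 9 reads in the controls, or 0.972 and 0.874 RPKM in Zscan4 OE, against 1.47 and 1.21 RPKM in the controls, with no overlap and a log2 difference of -0.49. Hoxd4 had 1.31 and 0.791 RPKM in Zscan4 OE, against 1.62 and 0.593 RPKM in the controls, with overlap and a log2 difference of 0.04 that turns below 0 under 4 of the other scalings and offsets. Chosen after their values were seen, the remaining genes whose groups did not overlap were Hoxc9, Hoxd9 and Hoxd10 with higher values in Zscan4 OE and Hoxc8 and Hoxd12 with lower ones. The 3 with higher values are posterior genes of the trunk and limbs, but so is Hoxd12. Of the 9 genes in each of these clusters, 5 are posterior. Genes above both controls were 1 of 9 in cluster c (11.1%) and 2 of 9 in cluster d (22.2%), against 19.6% of all rows. Genes below both were 2 of 9 (22.2%) and 1 of 9 (11.1%), against 10.1% of all rows. Hoxd9 had 4 and 9 reads in Zscan4 OE, against 1 and 1 reads in the controls.

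Genes that control the Hox clusters, or work with their products, had no called member either. For comparison, 62.0% of all tested rows had a log2 difference above 0, and their median was 0.28. Of 30 Polycomb genes, which keep the clusters silent in stem cells, 0 were called in either direction, with 18 log2 differences above 0 and 12 below and a median of 0.19. The highest of them was Rbbp7, a histone-binding subunit, with 2.67 and 1.19 RPKM in Zscan4 OE, against 8.74 and 0.592 RPKM in the controls, which lie on both sides of Zscan4 OE. The one furthest from 0 for its error was Rnf2, the ubiquitin ligase of Polycomb complex 1, with 2.28 and 1.68 RPKM in Zscan4 OE, against 1.14 and 0.417 RPKM in the controls (log2 difference 1.36, adjusted p = 0.869, limma). Of 12 trithorax and H3K27 demethylase genes, which counter Polycomb, 9 were above 0 and 3 below, with a median of 0.32 and 0 called. Ash2l, a shared subunit of the H3K4 methyltransferases, had 2.20 and 1.80 RPKM in Zscan4 OE, against 1.16 and 1.46 RPKM in the controls. Dpy30, another such subunit, was the highest of that list and its groups overlapped, with 3.42 and 2.10 RPKM in Zscan4 OE, against 2.90 and 2.48 RPKM in the controls.

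The 16 genes of retinoic acid signalling, the classic inducer of Hox genes in stem cells, had 12 differences above 0 (75%) and 4 below, a median of 0.40 and 0 called. Of all tested rows 62.0% were above 0, and the median of these 16 genes lay 0.13 above that of all rows. The sum over the 16 genes was 1.503 and 1.204 RPKM in Zscan4 OE, against 1.18 and 1.06 RPKM in the controls. Crabp2, a carrier of retinoic acid to its receptors, had 11 and 13 reads in Zscan4 OE, against 1 and 4 reads in the controls, with a log2 difference of 1.23 (adjusted p = 0.776, limma). Rarg, a retinoic acid receptor, was the highest of the list, with 4.43 and 2.11 RPKM in Zscan4 OE, against 3.10 and 2.42 RPKM in the controls. Of the 9 TALE cofactors, the Pbx, Meis and Pknox partners of Hox proteins on DNA, 5 were above 0 and 4 below, with a median of 0.11 and 0 called. Meis2 had 0.691 and 0.881 RPKM in Zscan4 OE, against 0.469 and 0.229 RPKM in the controls, while Pbx4, the highest, had overlapping groups with 5.63 and 3.04 RPKM in Zscan4 OE, against 7.22 and 2.02 RPKM in the controls. Of the 8 caudal, ParaHox and Evx genes 4 were above 0 and 4 below, with a median of -0.11 and 0 called. Gsx2, a forebrain ParaHox gene, had 4 and 2 reads in Zscan4 OE, against 4 and 4 reads in the controls. Pdx1, the pancreatic ParaHox gene, had 1.03 and 0.851 RPKM in Zscan4 OE, against 1.31 and 1.44 RPKM in the controls.

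Other homeobox and Pax genes outside the clusters, from several families, gave a comparison of level. Over these 54 genes the sum was 0.964 and 0.750 RPKM in Zscan4 OE, against 1.28 and 0.831 RPKM in the controls. It was above the Hox sum in each library. Their median log2 difference was -0.18, with 18 above 0, 36 below and 0 called. A median under that of all rows was thus shared by Hox genes and these 54 genes. Pax3, a gene of the dorsal neural tube, was furthest from 0 for its error in that list, with 0.314 and 0.363 RPKM in Zscan4 OE, against 0.761 and 1.28 RPKM in the controls. Tlx3, a gene of sensory neurons, was the highest, with 1.99 and 0.799 RPKM in Zscan4 OE, against 4.92 and 1.35 RPKM in the controls.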

How the data were processed

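Chromatin accessibility was measured by ATAC-seq in 2 Zscan4 OE and 2 control libraries. The tools named per the submitters' processing notes are Trimmomatic, Bowtie2 and featureCounts, and the build is mm10. Not given in the sources used here are the read filters, duplicate removal, any Tn5 shift, the strand setting and the annotation. The deposited RPKM values, as named per the labels, proved to be whole reads divided by feature length and by 1 of 8 totals that rotate over rows and columns. All 38361 rows with at least 2 values above 0 gave whole reads for exactly 1 rotation, while 5918 rows had 1 value and 2127 rows were 0. The totals were placed so that the share of reads on rows was most alike (highest over lowest 1.36, against 4.17 to 10.1 for the 7 other placements in rotation order). Values were then put on each library's own total, so the planned test was run on rescaled values. Lengths are the smallest whole numbers that fit the values and may miss a common factor.

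Tests were run in limma 3.58.1 (R 4.3.3), with log2(RPKM + 0.1) as input and eBayes with a trend, for rows with a mean of at least 0.1 RPKM, two-sided, Benjamini-Hochberg adjusted over all 42989 rows at 0.05, and were checked on simulated data. The offset draws the log2 differences of low genes towards 0. Where only 1 library of a group is at 0, they can still exceed the log2 of the ratio of group means. Hoxb6 had a log2 difference of 1.57 with a ratio of mean RPKM of 1.73, and Hoxb8 had 1.31 with a ratio of 1.33. Cluster sums were compared by exact permutation. Of the rows, 72.6% matched RefSeq symbols (GRCm38.p6), which gave coordinates. Named genes were the 3 highest and 3 lowest Hox genes, the 5 largest differences each way among those with 20 reads, genes at 0 in a group, the highest of each cluster and class, and 2 per regulator list. The members and lists were chosen with earlier results of these data known. Alternatives covered the offset, filter, scaling, replicates and members; each-member, chromosome and second-Hoxd4-row variants were chosen after seeing the data. The values of 1 Hox gene are not reported here on their own; they are part of the sums and counts.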

Additional observations from a re-analysis of the deposited data

How the results depend on the processing

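With 2 shallow libraries a group, single Hox genes rest on 2 to 55 reads, which limits every value here. The values as deposited, with rotating totals, gave ratios of 1.93 for all Hox genes, 3.48, 1.201, 1.95 and 1.86 for clusters a, b, c and d, and 1.88, 1.67 and 2.15 for anterior, central and posterior genes. They also turned positive the log2 differences of Hoxb13 (0.34), Hoxa6 (1.01), Hoxa9 (1.66), Hoxb2 (0.41), Hoxb4 (0.89), Hoxb5 (0.74) and Hoxc4 (1.40). The ratio of cluster a was 1.73 without Hoxa3, the member with most reads, and 1.17 relative to its chromosome, and over each member left out it ran from 1.31 to 1.73. Without 1 library in turn it ran from 1.43 to 1.60, cluster b from 0.533 to 0.677, c from 0.745 to 0.970, d from 0.740 to 1.10 (above 1 without control 1 or without Zscan4 OE 2), and the Hox median relative to all rows from -0.43 to 0.014. Rows with at least 20 reads gave 4 higher and 1 lower call, and limma's voom on recovered reads 0 and 1, none of them Hox genes. Leaving out either control gave 0 higher and 0 lower calls, without Zscan4 OE 1 there were 4530 higher and 6 lower, and without Zscan4 OE 2 there were 3889 and 2, with the lone library assumed to vary like the other group. Hoxa4, with 1 read in each Zscan4 OE library, was called without Zscan4 OE 1 (log2 difference 1.83) and without Zscan4 OE 2 (2.16). Voom turned Hoxa9 to 0.11 and Hoxb8 to -0.10. Hoxd4 was -0.0060 with an offset of 1, -0.24 median centred, -0.056 quantile normalized and -0.017 scaled by reads on rows. Without 1 library in turn Hoxa6 ran from -0.94 to 0.10, Hoxa9 from -0.34 to 0.23, Hoxb6 from -0.19 to 3.33, Hoxb8 from -0.66 to 3.28 and Hoxd4 from -0.62 to 0.70. The cause of these changes was not tested. In 106 other recomputations of a group value or a count, a count stayed within 1.5 times and a group value within 1 SD. For a difference or ratio this SD is the root of the 2 group variances added, on the log2 scale. A ratio can cross 1 within it. Without 1 library in turn the ratio ran from 0.833 to 1.16 for central genes and from 0.923 to 1.18 for posterior genes.

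The replicate numbers are shared by both groups, but with 2 pairs they were not shown to pair the libraries: the deviations of same-numbered libraries correlated at 0.042 over all tested rows and at 0.129 over rows with 20 reads. With the replicate number as a block, limma called 0 higher and 0 lower rows, and the Hox median relative to all rows was -0.31.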

Other observations

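The non-coding genes inside the Hox clusters were covered by few reads. Of 18 such genes listed, 17 were in the table and 15 passed the filter, 11 (73.3%) with a log2 difference above 0, against 62.0% of all rows, and 4 below, and 0 were called by limma. Their median difference lay 0.37 above that of all rows, but 0.09 below it without control 1, and Mir10a and Mir196a-1 rest on 1 read each. At 0 in all 4 libraries were Mir196a-2 and Mir196b. Hotairm1, a non-coding RNA gene of cluster a, had 9 and 12 reads in Zscan4 OE, against 1 and 1 reads in the controls, or 2.44 and 2.39 RPKM in Zscan4 OE, against 0.919 and 0.336 RPKM in the controls. Both Zscan4 OE libraries were above both controls, with a log2 difference of 1.91 (adjusted p = 0.624, limma). On the b cluster Hoxb3os had 12 and 6 reads in Zscan4 OE, against 6 and 11 reads in the controls, and both its Zscan4 OE values, 0.792 and 0.292 RPKM, were below the 1.35 and 0.902 RPKM of the controls. Mir10b and Mir615 each had 1 read in each Zscan4 OE library and 0 in both controls, at or under the 3-read limit throughout. Their adjusted p of 0.156 and 0.161 came from these single reads on short features. The summed level of these genes was 0.740 and 0.619 RPKM in Zscan4 OE, against 0.688 and 0.591 RPKM in the controls, with overlapping groups. Hotairm1, Hoxb3os and Mir615 were picked after their values were seen.

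Of the marker lists of other cell types, 0 members were called by limma. The 4 primitive endoderm markers summed to 1.08 and 0.895 RPKM in Zscan4 OE, against 1.59 and 1.54 RPKM in the controls, with no overlap. The 5 mesoderm markers summed to 1.17 and 0.910 RPKM in Zscan4 OE, against 1.13 and 0.871 RPKM in the controls, and the 4 neuroectoderm markers to 1.02 and 0.819 RPKM in Zscan4 OE, against 1.28 and 0.672 RPKM in the controls. The part of any such difference in the Hox values was not tested.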
